A study of Mus musculus with 21 samples.

Results

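Cadherins, protocadherins and contactins are adhesion proteins of the cell surface. The set examined here held 47 of the 35266 genes in the count table: every cadherin and protocadherin whose symbol is Cdh or Pcdh followed by a number alone (which leaves out the clustered protocadherins and Pcdh11x), contactins 1 to 6 (Cntn1 to Cntn6) and the contactin-associated proteins (Cntnap1 to Cntnap4, Cntnap5a, Cntnap5b and Cntnap5c). Members were matched by symbol. They were followed across 21 RNA-Seq libraries of neurons picked by hand for their fluorescence from the arcuate nucleus of the mouse hypothalamus, 1 mouse per library. AGRP neurons came from NPY-hrGFP mice, in which the Npy reporter and not Agrp marks the cell, and POMC neurons from Pomc-GFP mice, both on a C57BL/6J background. All mice were male and 46 to 56 days old, and the labels name no further allele. They were either fed freely (fed, n = 5 for each cell type) or left with water alone for 24 hours before the experiment (food deprived, FD, n = 6 for AGRP and n = 5 for POMC).

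AGRP and POMC neurons are the hunger- and satiety-related neurons of the arcuate nucleus, and their synapses are known to be remodelled with energy state. Classical cadherins (types I and II) bind their own kind on the neighbouring cell and are tied to actin through catenins, and type II cadherins are known for marking neuron subsets. Delta protocadherins adhere more weakly, and delta-2 members can recruit the actin-regulating WAVE complex. Contactins are immunoglobulin proteins held to the membrane by a lipid anchor, and they act with contactin-associated proteins and with L1-type partners on axons and at synapses.

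Between 9822298 and 37663979 reads per library were assigned to genes, from 44 to 214 sorted cells. FD AGRP libraries came from 50 to 181 cells and held reads of 15251 to 18054 genes. Fed AGRP libraries came from 87 to 214 cells and held reads of 17367 to 18945 genes. Whether this bears on falls of members at a few reads was not tested. The marker genes followed the labels: summed Agrp and Npy reached 12064 to 68921 TPM (transcripts scaled by exon length and depth) in AGRP libraries and 5.45 to 226 TPM in POMC libraries, and summed Pomc and Cartpt reached 8809 to 37160 TPM in POMC libraries and 114 to 227 TPM in AGRP libraries. Markers of astrocytes, oligodendrocyte precursors, microglia, endothelial cells, mural cells and ependymal cells summed to at most 11.7 TPM per list in any library, and oligodendrocyte markers to at most 47.8 TPM. Of 4 astrocyte markers tested, Aldh1l1 was called higher in FD than in fed AGRP neurons (log2 fold change 5.91 ± 1.77, q = 0.0284), from at most 0.045 TPM in fed to 0.217 to 5.15 TPM in FD libraries, while the summed astrocyte list overlapped (0.326 to 5.50 TPM in fed and 0.219 to 9.76 TPM in FD libraries); no marker of the other non-neuronal lists was called in that comparison, and the part of astrocytes in the results was not tested. Markers of other arcuate neurons (Th, Ghrh, Kiss1 and Sst) summed to 442 to 2345 TPM in AGRP libraries, nearly all of it Sst, and to 0.587 to 213 TPM in POMC libraries; their part in the results was not tested. In pooled cells of this kind, fewer expressing cells and less RNA per cell cannot be told apart. No source used here says whether mice shared a litter or a sorting day, and p-values measure the spread between these libraries.

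Of the 47 members, 41 passed the expression filter (more than 1 CPM, counts scaled to library size, in at least 3 libraries) and were tested with edgeR among 16513 genes. The 6 others were Cdh3 and Cdh19, without a read in any library, and Cdh5 (VE-cadherin of endothelium), Cdh26, Cntnap3 and Pcdh12, whose highest values were 0.116, 0.371, 1.40 and 2.02 CPM. Cdh5, which marks vessels, held at most 3 reads in any library. A gene is called changed below where its Benjamini-Hochberg adjusted p (q) was under 0.05. Under that rule 29 members were called in at least 1 of 5 comparisons. Single comparisons called 0.375% to 18.6% of all genes tested in either direction. The share of all genes called in at least 1 of the 5 is not given here, so the 29 cannot be set against it.

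The 6 members with the highest levels, by the mean of TPM over all libraries, were Cntn1 (281 TPM), Pcdh17 (271 TPM), Pcdh9 (156 TPM), Cdh18 (113 TPM), Pcdh20 (112 TPM) and Cdh2 (110.4 TPM), and Cdh13 and Pcdh7 followed closely at 108 and 105 TPM. Cntn1, a contactin found throughout the nervous system, was high everywhere: its group means were 261 ± 8.74 TPM in fed AGRP neurons, 270.4 ± 28.0 TPM in FD AGRP neurons, 275 ± 68.2 TPM in fed POMC neurons and 319 ± 34.8 TPM in FD POMC neurons (SD). Cdh2 (N-cadherin, the main cadherin of synapses) was at 128 ± 31.0, 96.9 ± 28.8, 111 ± 33.1 and 109 ± 20.5 TPM in the same order. Cntnap2, which holds potassium channels beside the node of Ranvier, was at 99.4 ± 15.6, 100.3 ± 14.9, 73.1 ± 20.9 and 96.1 ± 18.7 TPM. None of these 3 was called in any comparison. The count of members with a group mean over 10 TPM differed between the cell types. It was 17 in fed and 14 in FD AGRP neurons, against 27 and 26 in fed and FD POMC neurons. At other cuts the cell types were closer: over 1 TPM the counts were 37 and 31 against 34 and 36 in the same order. Over 50 TPM they were 8 and 8 against 9 and 9. The 6 highest members of each group took 72.0% and 78.0% of the summed level of all members in fed and FD AGRP neurons, and 62.4% and 61.4% in fed and FD POMC neurons, while the summed level itself lay between 1595 and 1785 TPM in all 4 groups. These are descriptions of levels, with no test.

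**Figure D1:**
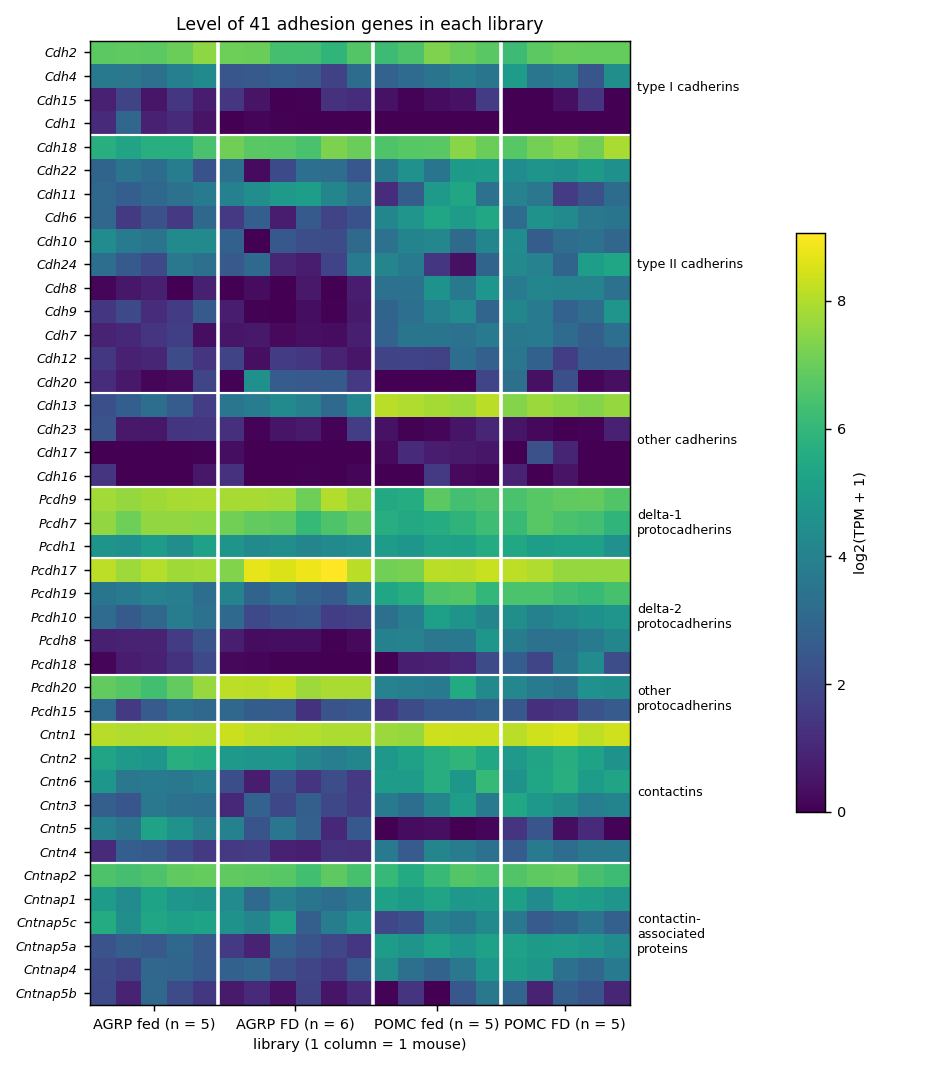
Level of the 41 tested members (rows, grouped by class and ordered by mean level within it) in each of the 21 libraries (columns, grouped by cell type and feeding), as log2(TPM + 1). Cntn1, Cdh2, Pcdh17 and Cntnap2 are bright in every group, Pcdh20 is brighter in AGRP libraries, and Cdh13 is brighter in POMC libraries.

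The first comparison asks which adhesion genes differ between FD and fed AGRP neurons. In these neurons 13 of the 41 tested members were called: 4 were higher after deprivation (9.76%, where 5.87% of all genes tested were called higher) and 9 were lower (22.0%, where 4.43% of all genes were called lower). The 4 that rose were the protocadherins Pcdh20 and Pcdh17 and the cadherins Cdh18 and Cdh13, and the 9 that fell were Cdh1, Cdh7, Cdh9, Pcdh7, Pcdh8, Pcdh10, Pcdh18, Cntn6 and Cntnap1. The median log2 fold change over the 41 tested members was -0.48, beside -0.02 over all genes tested, and 11 of the 41 lay above 0. The study further asked that expression change by more than 1 on the log2 scale and that some group average more than 20 CPM, and then 6 members remained, 14.6% of those tested against 4.46% of all genes. Values by library are given as normalized CPM, CPM scaled further by edgeR's TMM factors, which suits comparisons of 1 gene across libraries and not of levels between genes.

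Among the cadherins, Cdh18 (type II) rose. It read 38.2, 31.8, 39.0, 38.2 and 69.0 normalized CPM in the 5 fed libraries, and 93.2, 109 and 141 as the lowest, the median and the highest of the 6 FD libraries. All FD libraries lay above all fed ones, 2.53-fold in the fit (log2 fold change 1.34 ± 0.22 SE, q = 0.000105). Cdh13 (T-cadherin, on chromosome 8 from 118283733 to 119324921 in mm10, which has a lipid anchor in place of an intracellular domain and binds adiponectin) stood at a low level in AGRP neurons and rose too. Its fed libraries read 3.75, 6.33, 9.13, 5.50 and 2.36 normalized CPM and its FD libraries 9.67, 19.5 and 23.7 (lowest, median, highest). The groups did not overlap, and the fold was 3.26 (log2 fold change 1.70 ± 0.26, q = 4.24e-05). Cdh13 was much higher in POMC neurons, and the POMC markers are given beside it: Pomc read 4.55 to 19.8 normalized CPM in fed and 2.70 to 24.0 in FD AGRP libraries, and summed Pomc and Cartpt had a median of 173 TPM in fed and 158 TPM in FD AGRP libraries.

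Cadherins that fell did so from low levels. Cdh9 (type II) read 1.51, 2.92, 1.10, 1.85 and 4.61 normalized CPM in fed AGRP libraries, and 0, 0.196 and 0.596 as the lowest, the median and the highest FD value. No FD library reached a fed one, and the fold was 8.81 (log2 fold change -3.14 ± 0.71, q = 0.00355). Cdh1 (E-cadherin, best known from epithelia) read 1.42, 9.30, 0.974, 1.42 and 0.482 normalized CPM in fed libraries, and 0, 0.0152 and 0.173 in FD libraries. Its fed libraries held 9 to 169 reads and its FD libraries 0 to 3, with a log2 fold change of -5.76 ± 1.60 (q = 0.0224). This call depended on fed library 2, which held the 169 reads: without that library q was 0.109. Cdh7 (type II) read 2.15, 3.03, 4.38, 5.93 and 0.750 in fed and 0.547, 1.23 and 2.09 in FD libraries. These groups overlapped, the log2 fold change was -1.35 ± 0.43 (q = 0.0429), and the call held in 4 of 11 fits that each left out 1 library, where q went up to 0.182.

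Among the protocadherins, Pcdh20 rose from 173, 168, 119.8, 179.9 and 314 normalized CPM in fed libraries to 416, 463 and 556 (lowest, median, highest) in FD libraries. The groups did not overlap, and the fold was 2.52 (log2 fold change 1.33 ± 0.27, q = 0.00124). In TPM it went from 122 ± 45.9 (n = 5) to 259 ± 34.3 (n = 6), which made it the third most abundant member of FD AGRP neurons, behind Pcdh17 at 370.2 ± 133 TPM and Cntn1. Pcdh17, a delta-2 member described at synapses between defined brain regions, read 731, 619, 697, 577 and 606 normalized CPM in fed libraries. Its 6 FD libraries read 457, 1443, 1208, 1702, 1694 and 828, so that 5 lay above every fed library and 1 below every fed library. The fold was 1.89 (log2 fold change 0.92 ± 0.23, q = 0.00743).

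Of the other 4 delta-2 protocadherins 3 fell, and Pcdh19 was not called (log2 fold change -0.22, q = 0.612). Pcdh8 (arcadlin, known as a gene induced by synaptic activity) read 0.778, 0.991, 0.974, 2.18 and 4.55 normalized CPM in fed libraries and 0.0506, 0.355 and 0.807 in FD libraries. Only the highest FD value reached into the fed range, and the fold was 5.12 (log2 fold change -2.36 ± 0.57, q = 0.00600). Pcdh18 read 0.137, 1.05, 1.16, 2.18 and 4.50 in fed libraries and 0, 0.0608 and 0.231 in FD libraries, where it held 0 to 4 reads. All but 1 fed library lay above every FD library, and the log2 fold change was -4.13 ± 1.06 (q = 0.0102). Pcdh10 fell by 0.90 on the log2 scale (SE 0.29, q = 0.0462). Pcdh7, the only delta-1 member called, fell by 0.48 on the log2 scale (SE 0.16, q = 0.0438), from 508 ± 58.4 to 364 ± 65.0 normalized CPM. Each of these 2 calls held in 3 of 11 fits that left out 1 library. In the GENCODE M21 annotation 21.1% of the exonic bases of Pcdh7 are shared with a gene on the opposite strand, and the reads were counted without strand.

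The contactin Cntn6, known from the cerebellum and from motor learning, also fell. It read 27.4, 13.4, 13.9, 12.3 and 15.5 normalized CPM in fed libraries and 0.863, 3.28 and 4.68 in FD libraries. The groups were far apart, with a 5.24-fold difference (log2 fold change -2.39 ± 0.36, q = 3.50e-05). Cntnap1 (Caspr, the partner of contactin 1 beside the node of Ranvier) fell by 0.96 on the log2 scale (SE 0.25, q = 0.0100), and its groups did not overlap. Of the 6 contactins, 5 had a log2 fold change under 0 and Cntn1 one over 0 (0.30, q = 0.130), and of the contactins Cntn6 alone passed the adjusted threshold. With limma-voom, the study's own test, 9 of the 13 calls were kept, Cdh7, Pcdh8, Pcdh10 and Pcdh18 were lost, and Cdh10 and Cntn5 were added. DESeq2 kept all 13 and added Cdh4, Cdh10 and Cdh11. In a fit of the AGRP libraries alone 9 were kept, Cdh7, Cdh9, Pcdh8 and Pcdh10 were lost, and Cdh4 and Cdh11 were added. Libraries had received the RNA spike-in at 1 of 3 amounts (1 µl, 10 µl or an amount set by cell number). Within these sets, which held 1 FD and 1 fed, 2 and 2, and 3 and 2 AGRP libraries, the difference in mean log2(normalized CPM + 0.5) between FD and fed AGRP libraries kept its direction in each set for all 13 called members: it was 1.34, 1.62 and 1.13 for Pcdh20, 1.26, 1.39 and 2.11 for Cdh13, and -2.49, -2.29 and -2.16 for Cntn6. The 13 were called on these same libraries, so the shared direction is no independent check.

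**Figure D2:**
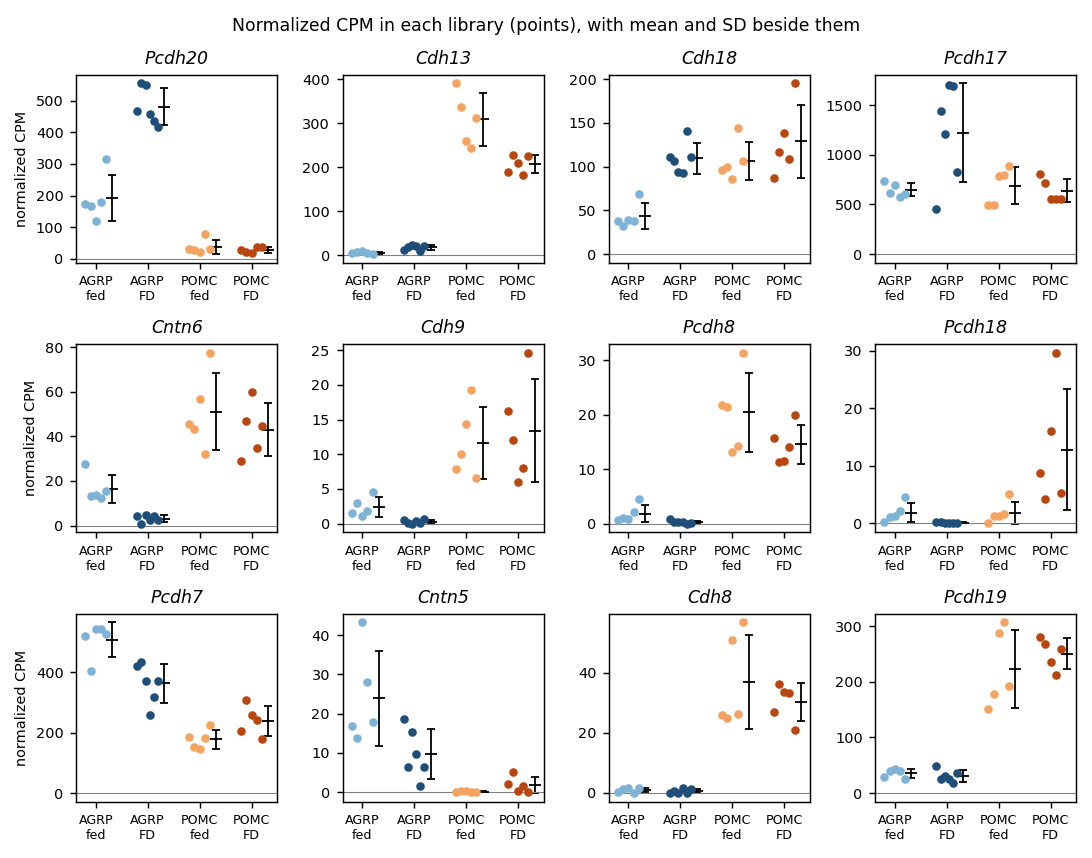
Normalized CPM (linear axes) of 12 members in every library, from replicate 1 on the left of each group, with the mean and SD beside the points. FD AGRP libraries lie above fed ones for Pcdh20, Cdh13 and Cdh18 and below them for Cntn6 and Cdh9, and Cdh8 and Pcdh19 separate the cell types in both feeding states.

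Some members near each other on a chromosome moved in opposite directions and others in the same direction. Pcdh8, Pcdh17, Pcdh20 and Pcdh9 follow each other on chromosome 14 with 4.67, 3.93 and 4.54 Mb between neighbours, and in FD AGRP neurons the first fell, the next pair rose and Pcdh9 was not called (log2 fold change 0.18, q = 0.578). On chromosome 15, Cdh6, Cdh9, Cdh10, Cdh12 and Cdh18 lie in a row, and Cdh9 fell while Cdh18 rose. Cdh10 and Cdh12, which were not called, lie between them, with gaps of 1.96, 2.1 and 1.45 Mb from Cdh9 to Cdh18. On chromosome 3, Pcdh10 and Pcdh18 lie 4.31 Mb apart, and both fell. Most members are large genes: the 41 tested span a median of 220.4 kb, against 19.0 kb for all genes tested, and 27 of them exceed 100 kb. RefSeq promoters (build GRCm38.p6, 250 bases before to 50 after the start) were matched by symbol for 31 of the 47 members. They are shown for the 3 members that rose in FD AGRP neurons and had one, and for Pcdh8, the neighbour of Pcdh17 and Pcdh20 that fell. Each is written 5′ to 3′ on the strand of its gene, from chr14:88471347-88471646 on the minus strand, chr14:84443313-84443612 on the plus strand, chr15:23036213-23036512 on the plus strand and chr14:79771263-79771562 on the minus strand. Capitals mark matches on either strand to 6 motifs: the TATA box TATAAA, the E-box CACGTG, the cyclic AMP response element TGACGTCA, the AP-1 site TGANTCA, the FOXO site GTAAACA and the GC box GGGCGG.
Pcdh20: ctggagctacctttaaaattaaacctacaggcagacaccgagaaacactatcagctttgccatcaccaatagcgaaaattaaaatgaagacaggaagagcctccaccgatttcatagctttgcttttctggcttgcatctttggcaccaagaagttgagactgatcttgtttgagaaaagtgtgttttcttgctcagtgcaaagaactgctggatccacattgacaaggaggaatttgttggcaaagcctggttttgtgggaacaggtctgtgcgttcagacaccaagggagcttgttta
Pcdh17: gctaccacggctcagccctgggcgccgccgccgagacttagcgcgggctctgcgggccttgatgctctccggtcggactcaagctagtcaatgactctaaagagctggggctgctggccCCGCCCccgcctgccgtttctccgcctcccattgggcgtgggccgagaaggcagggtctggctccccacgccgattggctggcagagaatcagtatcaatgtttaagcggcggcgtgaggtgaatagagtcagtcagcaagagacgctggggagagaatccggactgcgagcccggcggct
Cdh18: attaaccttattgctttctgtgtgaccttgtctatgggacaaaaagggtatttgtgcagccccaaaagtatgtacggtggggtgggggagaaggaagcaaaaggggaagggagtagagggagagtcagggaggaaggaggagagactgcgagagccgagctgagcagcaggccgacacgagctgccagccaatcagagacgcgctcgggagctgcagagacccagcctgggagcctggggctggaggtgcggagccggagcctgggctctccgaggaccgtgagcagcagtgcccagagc
Pcdh8: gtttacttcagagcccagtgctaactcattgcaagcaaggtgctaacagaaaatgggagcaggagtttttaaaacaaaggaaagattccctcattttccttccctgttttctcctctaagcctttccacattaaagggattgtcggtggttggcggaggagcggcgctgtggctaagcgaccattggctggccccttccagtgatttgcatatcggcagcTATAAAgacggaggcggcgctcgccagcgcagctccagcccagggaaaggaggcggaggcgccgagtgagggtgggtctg

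The 4 promoters shared none of these motifs. Pcdh20 and Cdh18 held no match to any of the 6. Pcdh17 held 1 GC box, which 35.7% of all 32851 promoters in the table hold, and Pcdh8 held 1 TATA box, which 13.6% hold. The E-box, cyclic AMP, AP-1 and FOXO motifs, found in 7.15%, 1.79%, 7.81% and 3.65% of all promoters, were in none of the 4 windows. G and C made up 43.7% of the Pcdh20 window, 65.0% of Pcdh17, 60.3% of Cdh18 and 54.3% of Pcdh8, beside a median of 52.7% over all promoters. These are matches of letters in a window of 300 bases.

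The same question was asked of POMC neurons, and there no member was called: 0 of 41 were higher, where 0.182% of all genes were called higher, and 0 were lower, where 0.194% were. Under the study's further demands the count was also 0, against 0.266% of all genes. At an unadjusted p under 0.05 there were 6 members by edgeR, namely Cntn5, Pcdh18, Pcdh7, Cdh13, Pcdh9 and Cdh6 (14.6%, near the 12.2% of all genes tested). The adjusted count was 0 by limma-voom and 1 by DESeq2, which called Cntn5. Cntn5 (NB-2, a contactin of the auditory system) read 0, 0.333, 0.393, 0 and 0.103 normalized CPM in fed POMC libraries and 2.13, 5.25, 0.339, 1.47 and 0.0725 in FD POMC libraries. Read counts were 0 to 10 in the fed and 1 to 110 in the FD libraries, and the groups overlapped (log2 fold change 3.36 ± 0.89, q = 0.0801). Leaving out fed library 5 or FD library 5 brought the count of called members to 1. In the 1 µl set, the only set with both groups (3 against 3 libraries), the count was 0. The 4 members that rose in AGRP neurons had log2 fold changes of -0.43 (Pcdh20), -0.11 (Pcdh17), 0.28 (Cdh18) and -0.58 (Cdh13) in POMC neurons, with q of 0.329 or more. Cdh13 nevertheless read 391, 337, 259, 243 and 313 in fed and 188, 229, 208, 183 and 225 in FD POMC libraries, without overlap.

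Whether a member changed differently in the 2 cell types was tested directly, as the AGRP change minus the POMC change. This difference was called for 11 of 41 members: it was positive for 5 (12.2%, against 4.08% of all genes) and negative for 6 (14.6%, against 2.63%). Under the further demands 8 remained, 19.5% against 4.55% of all genes. The positive ones were Cdh11 (2.68 ± 0.82 SE on the log2 scale, q = 0.0454), Cdh13 (2.28 ± 0.36, q = 0.000129), Pcdh20 (1.76 ± 0.39, q = 0.00459), Cdh18 (1.06 ± 0.31, q = 0.0338) and Pcdh17 (1.03 ± 0.32, q = 0.0495). The negative ones were Pcdh18 (-6.93 ± 1.48, q = 0.00373), Cntn5 (-4.67 ± 1.15, q = 0.0115), Cdh9 (-3.35 ± 0.97, q = 0.0328), Cntn6 (-2.14 ± 0.50, q = 0.00788), Cdh4 (-1.78 ± 0.54, q = 0.0431) and Pcdh7 (-0.91 ± 0.23, q = 0.0126; 0.11 and not called when counts were scaled to spike-in RNA per cell, still below the median of all genes, which moved to 1.04).

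Cdh11, Cdh4 and Cntn5 passed the test of the difference without passing in either cell type alone by the main test. In AGRP neurons DESeq2 called Cdh11 and Cdh4, and limma-voom called Cntn5. Cdh11 (a type II cadherin also known from bone and mesenchyme) read 8.38, 7.16, 8.52, 11.1 and 15.4 normalized CPM in fed and 13.4, 27.6 and 53.7 (lowest, median, highest) in FD AGRP libraries. In POMC neurons it read 1.88, 7.96, 36.9, 50.6 and 11.7 in fed and 19.5, 13.8, 2.50, 4.62 and 10.4 in FD libraries. The median went up in one cell type and slightly down in the other, with wide overlap in POMC neurons. Cdh4 (R-cadherin, type I) read 21.6, 22.7, 17.5, 26.7 and 37.3 in fed and 5.67, 12.2 and 17.95 in FD AGRP libraries, and 15.9, 19.0, 20.6, 27.0 and 21.1 in fed and 63.6, 21.3, 26.1, 8.84 and 43.7 in FD POMC libraries. Its 2 AGRP groups touched at 17.5 and 17.95, and its FD POMC libraries reached from under to over all fed POMC libraries. Pcdh18, which was nearly lost from FD AGRP libraries, read 0, 1.26, 1.18, 1.65 and 5.08 in fed and 8.73, 4.20, 16.0, 29.7 and 5.22 in FD POMC libraries, where the change was not called (log2 fold change 2.79 ± 1.02, q = 0.221).

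The count of 11 moved with single libraries. It was 6 without fed AGRP library 2, and 7 without fed AGRP library 1, fed AGRP library 4, FD AGRP library 5 or FD POMC library 5. Cdh13, Cntn5, Cntn6, Pcdh7, Pcdh18 and Pcdh20 were called in each of 21 fits that left out 1 library. Cdh9, Cdh18, Cdh4, Cdh11 and Pcdh17 were called in 14, 12, 7, 7 and 5 of them. With limma-voom 7 of the 11 calls stayed, and Cdh4, Cdh11, Cntn5 and Pcdh17 were lost. The 10 µl set held no fed and the cell-number set no FD POMC libraries. With the spike-in set as a factor in the model, 8 of the 11 calls stayed, and Cdh4, Cdh11 and Cdh18 were lost.

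**Figure D3:**
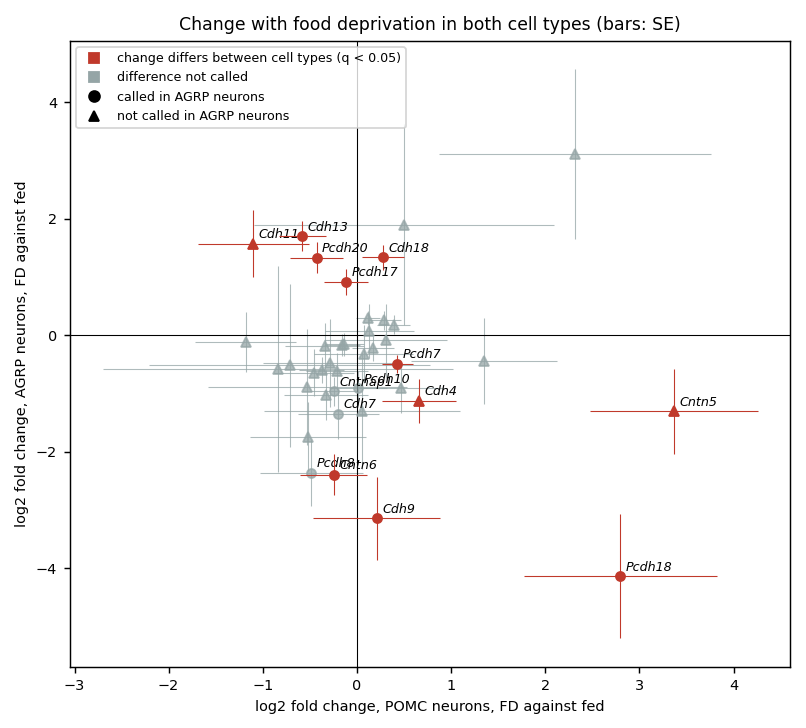
Log2 fold change of each member with food deprivation in POMC (x axis) and AGRP neurons (y axis), with bars of 1 SE; red marks members whose change differed between cell types at q under 0.05, and circles those called in AGRP neurons. Cdh13, Pcdh20, Pcdh17 and Cdh18 lie high, between -0.58 and 0.28 on the x axis, and Pcdh18 lies low and far to the right; Cdh1, without a read in POMC libraries, is left out.

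The comparison of AGRP with POMC neurons in fed mice asks which adhesion genes set the cell types apart at rest. Of the 41 tested members 19 were called: 6 were higher in AGRP neurons (14.6%, against 3.33% of all genes) and 13 were higher in POMC neurons (31.7%, against 4.24%). With the further demands 17 remained, 41.5% against 4.02% of all genes. The median log2 fold change (AGRP against POMC) was -0.35 over the tested members and -0.01 over all genes tested. Higher in AGRP neurons were Cntn5, Pcdh20, Cntnap5c, Pcdh7, Pcdh9 and, at a low level, Cdh1, and higher in POMC neurons were 5 type II cadherins, Cdh13, 3 delta-2 protocadherins, 2 contactins and 2 contactin-associated proteins. The mice also differed in reporter strain, which cannot be told apart from cell type.

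On the AGRP side, Cntn5 read 17.0, 13.7, 43.3, 28.0 and 17.8 normalized CPM in fed AGRP libraries, with 249 to 711 reads, against the 0 to 0.393 normalized CPM of fed POMC libraries given above. The separation was complete (log2 fold change 7.04 ± 1.02, q = 1.07e-05). Cdh1 had no read in any of the 10 POMC libraries, so its level in fed AGRP neurons was at least 19.2-fold higher, with a floor of 3 reads per library for POMC (q = 0.00563). Without fed AGRP library 2 the bound was 7.59-fold and q was 0.0249. The protocadherins were far more abundant. Pcdh20 read 30.9, 26.3, 20.8, 76.9 and 30.7 normalized CPM in fed POMC libraries, 5.15-fold under the AGRP libraries (log2 fold change 2.36 ± 0.29, q = 5.92e-07). Pcdh9 read 395, 390.4, 395, 429 and 447 in AGRP and 105, 109, 212, 161 and 178 in POMC libraries. Pcdh7 read 520.4, 405, 545, 543 and 528 in AGRP and 185, 154, 145, 181 and 224 in POMC libraries. These 2 delta-1 protocadherins were 2.69-fold (q = 6.65e-07) and 2.86-fold higher in AGRP neurons (q = 9.01e-08), with no overlap. Cntnap5c, one of 3 mouse copies of a contactin-associated gene, read 49.4, 25.8, 42.6, 37.1 and 42.3 in AGRP and 4.09, 5.07, 17.1, 13.9 and 21.7 in POMC libraries (log2 fold change 1.67 ± 0.43, q = 0.0123). Its copy Cntnap5a lay the other way: it read 11.7, 19.1, 14.9, 22.1 and 14.8 in AGRP and 124, 96.3, 115, 87.7 and 114 in POMC libraries, 6.50-fold higher in POMC neurons (q = 1.90e-06).

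On the POMC side, Cdh13 stood out. At 249 ± 30.1 TPM (n = 5) in fed POMC neurons, against 5.01 ± 2.41 TPM (n = 5) in fed AGRP neurons, it was 57.2-fold higher in POMC neurons in the fit (log2 fold change -5.84 ± 0.31, q = 2.38e-14). Its place by mean TPM among the 47 members was 2nd in fed POMC neurons. Cdh8 (type II) read 0.183, 1.10, 1.46, 0 and 1.50 normalized CPM in AGRP and 26.0, 25.0, 50.9, 26.1 and 56.9 in POMC libraries (log2 fold change -5.45 ± 0.87, q = 4.71e-05). Cdh6 read 4.94, 1.54, 2.74, 1.38 and 5.63 in AGRP and 16.6, 23.6, 31.4, 24.9 and 32.8 in POMC libraries (-2.99 ± 0.57, q = 0.000554). Both type II cadherins were well apart between the cell types. Cdh7 read 22.7, 36.1, 30.9, 27.5 and 35.1 in POMC libraries, 9.36-fold above AGRP libraries (q = 1.40e-05), and Pcdh8 read 21.8, 21.5, 13.1, 14.3 and 31.4, which was 10.7-fold above (q = 0.000184). The other members higher in fed POMC neurons were Pcdh19 (log2 fold change -2.65, q = 1.88e-09; a gene tied to epilepsy in girls), Cdh9 (-2.27, q = 0.0429), Cntn4 (-1.94, q = 0.00594), Cntnap4 (-1.81, q = 0.0182), Cntn6 (-1.63, q = 0.00339), Pcdh10 (-1.33, q = 0.00528) and Cdh18 (-1.30, q = 0.000170). Within the 1 µl and the cell-number sets, all 19 called members kept their direction, with differences of -5.99 and -6.46 for Cdh13 and 2.22 and 3.04 for Pcdh20. These libraries also served to call the 19, so this is no independent check. The call of Cdh9 held in 2 of 10 fits that each left out 1 library and that of Cntnap4 in 6.

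In FD mice more members separated the cell types, and so did more of all genes tested (18.6% in either direction, against 7.57% in fed mice). Of the 41 tested, 26 were called: 6 were higher in AGRP neurons (14.6%, against 9.28% of all genes) and 20 higher in POMC neurons (48.8%, against 9.27%), and 19 met the further demands (46.3% against 8.11%). The median log2 fold change was -1.15 over the tested members and -0.0038 over all genes tested. This comparison and the one in fed mice share no library, but each shares its AGRP libraries with the AGRP comparison above. On the AGRP side, Pcdh20 had the largest fold of the called members in FD mice, at 28.7, 19.9, 16.8, 37.0 and 35.7 normalized CPM in FD POMC libraries against 416 to 556 in FD AGRP libraries, 17.5-fold (log2 fold change 4.13 ± 0.31, q = 2.40e-11). Cntn5 read 1.52, 8.12 and 18.7 (lowest, median, highest) in FD AGRP libraries. It now overlapped with the POMC libraries (log2 fold change 2.37 ± 0.79, q = 0.0336), and within the 1 µl set its difference was -0.21, the only called member to turn. Cntnap5c read 8.73, 25.9 and 45.8 in FD AGRP and 13.3, 5.83, 7.74, 11.4 and 6.96 in FD POMC libraries (1.49 ± 0.42, q = 0.0114). Pcdh9 read 341, 467 and 559.7 in FD AGRP and 171, 199.8, 224, 223 and 186 in FD POMC libraries (1.22 ± 0.17, q = 2.73e-06). The 2 others were Pcdh17 at 810.1, 712, 557, 555 and 553 in FD POMC libraries (0.94 ± 0.23, q = 0.00312) and Pcdh7 at 260.4, 373 and 435 in FD AGRP and 206, 309.8, 260.3, 241 and 179 in FD POMC libraries (0.60 ± 0.16, q = 0.00636). Both of these overlapped between the cell types.

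The largest differences on the POMC side were of genes at low levels in FD AGRP neurons. Pcdh18 differed by -6.95 ± 1.17 on the log2 scale (q = 5.03e-05) and was not called in fed mice (-0.02, q = 0.996). Cdh8 read 0, 0.313 and 1.49 normalized CPM in FD AGRP and 26.9, 36.4, 33.6, 33.4 and 20.96 in FD POMC libraries (-5.64 ± 0.81, q = 4.70e-06). Cdh9 read 16.3, 12.0, 6.01, 8.06 and 24.7 in FD POMC libraries, 49.2-fold above FD AGRP libraries (q = 2.33e-06), where fed mice had 7.85, 10.0, 14.4, 19.2 and 6.52 in POMC libraries and a 4.83-fold difference. Pcdh8 read 15.8, 11.4, 11.6, 14.1 and 20.02 in FD POMC libraries, 39.3-fold above FD AGRP libraries (q = 1.42e-07). Cdh7 read 33.0, 34.2, 23.2, 16.4 and 25.8 (20.8-fold, q = 2.88e-08). Cntn6 read 28.9, 46.7, 59.9, 34.9 and 44.5, 13.7-fold above FD AGRP libraries (q = 6.54e-09), and 45.7, 43.1, 56.9, 31.9 and 77.5 in fed POMC libraries. For each of these 6 members no FD AGRP library reached a FD POMC library. The other 14 higher in FD POMC neurons were, by class, the cadherins Cdh13 (-3.55, q = 1.35e-11), Cdh24 (-2.08, q = 0.0496), Cdh12 (-1.95, q = 0.0295), Cdh6 (-1.92, q = 0.00807), Cdh22 (-1.87, q = 0.00875) and Cdh4 (-1.50, q = 0.00439); the protocadherins Pcdh19 (-3.04, q = 2.56e-11), Pcdh10 (-2.24, q = 1.69e-06) and Pcdh1 (-0.57, q = 0.0290); the contactins Cntn4 (-2.64, q = 5.24e-05) and Cntn3 (-2.55, q = 8.89e-05); and the contactin-associated proteins Cntnap5a (-3.10, q = 3.53e-08), Cntnap4 (-1.86, q = 0.00410) and Cntnap1 (-1.13, q = 0.00106). Cdh24 was called in 3 of 11 fits that left out 1 library, and Cntn5 in 5. Cdh18, which separated the cell types in fed mice, read 86.6, 116, 138, 108 and 196 in FD POMC libraries and was not called in FD mice (-0.24, q = 0.495).

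**Figure D4:**
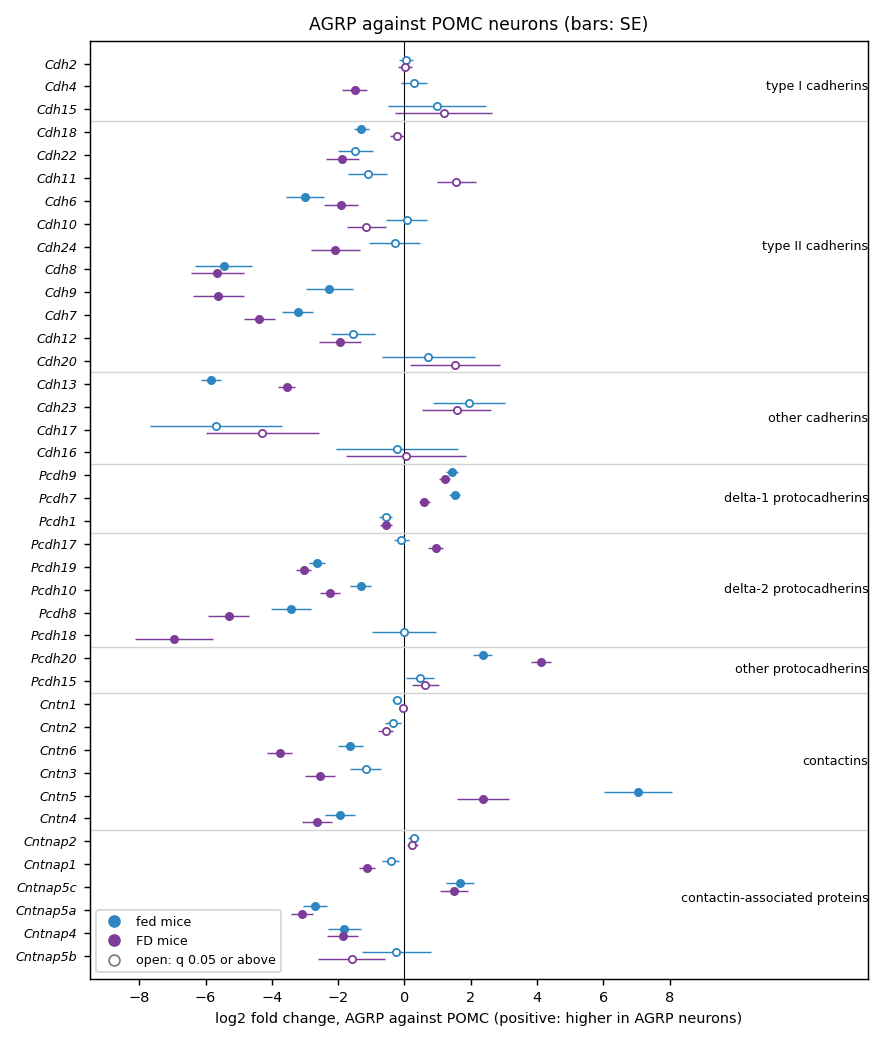
Fitted log2 fold change of AGRP against POMC neurons for 40 members in fed (blue) and FD mice (purple), with bars of 1 SE; filled points had q under 0.05, and Cdh1, without a read in POMC libraries, is left out. Type II cadherins and delta-2 protocadherins lie mostly left of 0 (higher in POMC neurons), while Pcdh20, Pcdh9, Pcdh7, Cntn5 and Cntnap5c lie to the right in both states.

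Over all genes tested, 3.33% were called higher in AGRP and 4.24% in POMC neurons of fed mice, and 9.28% and 9.27% in FD mice. By class, the type II cadherins gave 0 members higher in AGRP and 5 of 11 higher in POMC neurons of fed mice, and 0 and 7 of 11 in FD mice. The delta-2 protocadherins gave 0 and 3 of 5 in fed mice, and 1 (Pcdh17) and 4 of 5 in FD mice. Among the 3 delta-1 protocadherins of the set Pcdh7 and Pcdh9 were higher in AGRP neurons in both states, and Pcdh1 was higher in POMC neurons of FD mice. Of the 6 contactins 1 was higher in AGRP and 2 in POMC neurons of fed mice, and 1 and 3 in FD mice. The type I cadherins, with the widely used Cdh2 among them, gave 1 call of 4 in each state, in opposite directions. Cdh1 was higher in AGRP neurons of fed mice and Cdh4 in POMC neurons of FD mice. Cdh15 (M-cadherin of muscle), Cdh16, Cdh17, Cdh20, Cdh23 and Pcdh15 (the last 2 form the tip link of hair cells) and also Cdh2, Cdh10, Cntn1, Cntn2, Cntnap2 and Cntnap5b were tested and called in none of the 5 comparisons by the main test. Cdh10 nevertheless read 10.0 to 19.3 normalized CPM in fed and 0 to 8.72 in FD AGRP libraries, without overlap (log2 fold change -1.74). It was called there by limma-voom, by DESeq2 and with a factor for replicate number. Between the cell types, limma-voom called Cdh17 in fed mice, and the spike-in set as a factor added Cntn2 in FD mice. Cdh20 held 1 to 573 reads in FD AGRP libraries and none in 4 of 5 fed POMC libraries, and its AGRP log2 fold change of 3.11 ± 1.45 had a q of 0.201.

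The partners through which these proteins act were read from the same fits, from lists of 8 catenins and cadherin partners, 10 WAVE complex and kinase partners of delta protocadherins, and 10 partners of contactins, of which 9 were tested. In FD against fed AGRP neurons, where 10.3% of all genes tested were called in either direction, Ctnna1 (alpha-E-catenin, which links cadherins to actin) was lower (log2 fold change -0.99, q = 0.0182) and the other 7 of its list were not called. Abi2, a WAVE complex subunit, was higher (0.64, q = 0.00707) and the other 9 of its list were not called. Of the contactin partners, Nrcam (-0.85, q = 4.71e-05) and Chl1 (-0.64, q = 0.0178), both L1-type adhesion proteins, were lower, and Ptprz1, a receptor phosphatase that binds contactin 1 (0.97, q = 0.00397), and App, the amyloid precursor (0.53, q = 0.0307), were higher. In POMC neurons no partner was called by edgeR (6 had an unadjusted p under 0.05), beside 0.375% of all genes. Between the cell types in fed mice, where 7.57% of all genes were called in either direction, Ctnna1 (-0.995, q = 0.0299), Nrcam (-1.04, q = 2.37e-06) and App (-0.83, q = 0.000971) were higher in POMC neurons and Ctnna2 (alpha-N-catenin, 0.88, q = 0.0160) in AGRP neurons. In FD mice, where 18.6% of all genes tested were called in either direction, 10 partners of the 3 lists were called, 3 higher in AGRP neurons (Ptprz1, Ctnna2 and Ctnnb1) and 7 in POMC neurons, led by Ctnna1 (-1.74, q = 2.41e-05) and Nrcam (-1.66, q = 7.93e-11). The change with deprivation differed between the cell types for Ptprz1 (1.24, q = 0.0159) and Nrcam (-0.61, q = 0.0458), beside 6.71% of all genes.

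All these values are relative to the other genes of a library. With counts scaled to the spike-in RNA per sorted cell in place of TMM, no member was called in the AGRP comparison and 4 and 11 were called between the cell types in fed and FD mice. All 13 members called in the AGRP comparison kept their direction under that scaling, with log2 fold changes of 2.14 for Cdh13, 1.10 for Pcdh20, 0.99 for Cdh18 and -2.18 for Cntn6. It shifted the median of all genes by 1.10 on the log2 scale in the comparison of cell types in FD mice, and Cntnap1 and Pcdh1 then lay at 0.21 and 0.59, still below that median. Spike-in reads equalled 0.274% of gene reads in fed AGRP library 1 (142 cells, 1 µl) and 16.0% in library 2 (102 cells, 10 µl). This gap is wider than that of the labelled volumes, and the sets were unevenly spread over the POMC groups. A shift by spike-in set and one by RNA per cell therefore cannot be told apart.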

How the data were processed

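RNA of hand-sorted GFP-positive neurons of single mice was amplified (NuGEN Ovation RNA-Seq V2) and sequenced from 1 end. The deposited gene counts were made by the authors, who trimmed adaptors with cutadapt 1.7.1, removed abundant sequences with Bowtie2 2.1.0, aligned reads to mm10 with STAR 2.4.0i and assigned uniquely mapped reads without regard to strand to 35266 Gencode VM4 Basic genes with HTSeq 0.6.1p1 (versions per the submitters' processing notes). The deposited TPM values are those counts divided by summed exon length and scaled to the same total in each library. Because reads were unstranded, genes that overlap on opposite strands cannot be separated, and unique mapping can lower the counts of similar genes.

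The 92 spike-in rows and 5 summary rows (reads assigned to no gene among them, 25.6% to 55.3% of a library) were left out of library sizes and tests. Genes over 1 CPM in at least 3 libraries (16513) were scaled by TMM and fitted in 1 model of 4 groups with edgeR 4.0.16 (quasi-likelihood test, R 4.3.3), with Benjamini-Hochberg adjustment over all genes tested within each comparison (q, called under 0.05). Fold changes of FD against fed, of AGRP against POMC, and their difference are on the log2 scale with SE. limma-voom (limma 3.58.1), DESeq2 1.42.0, RLE and spike-in scaling, no filter, fits of only the groups compared, a factor for replicate number or spike-in set, stricter call criteria and leaving out each library were the alternatives. The fit in the 1 µl set alone was added after seeing the data. The test was also run on simulated counts. Changes were set there only in genes at higher levels, so that run does not cover members at a few reads per library.

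Values by library are given for called members, up to the 6 largest fold changes in each direction of each comparison, levels for the 6 members of highest TPM, and the highest CPM for members under the filter. Values of Cntnap2 and Cdh20, and those of named members in comparisons where they were not called, were added after values were seen. Members and lists were chosen with earlier results of these data known. A count of 3 reads per library was the floor for 0, equal to 0.0797 to 0.305 CPM, and covers counting error only. Promoters are from RefSeq (GRCm38.p6), gene spans from the coordinates given in the count table, and exon overlaps from GENCODE M21 on the same build.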

Additional observations from a re-analysis of the deposited data

Results flagged for a closer look

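In 6 of 114 groups checked over 29 called members, 1 library lay far from the others of its group by Dixon's criterion, where chance gives about 1 in 20 groups. Cdh1 was 9.30 normalized CPM in fed AGRP library 2 (nearest other 1.42) and 0.173 in FD AGRP library 2 (nearest 0.0607). Cdh18 was 69.0 in fed AGRP library 5 (nearest 39.0), Cntn6 was 27.4 in fed AGRP library 1 (nearest 15.5), Pcdh20 was 76.9 in fed POMC library 4 (nearest 30.9), and Pcdh7 was 405 in fed AGRP library 2 (nearest 520.4).

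The change with food deprivation differed between AGRP and POMC neurons by the test of the difference itself for 11 members. The AGRP change minus the POMC change, on the log2 scale, was 2.68 for Cdh11, 2.28 for Cdh13, 1.76 for Pcdh20, 1.06 for Cdh18 and 1.03 for Pcdh17. It was -6.93 for Pcdh18, -4.67 for Cntn5, -3.35 for Cdh9, -2.14 for Cntn6, -1.78 for Cdh4 and -0.91 for Pcdh7.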

How the results depend on the processing

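Scaling to spike-in RNA per sorted cell brought the count of called members from 13 to 0 in the AGRP comparison of FD with fed, from 19 to 4 and from 26 to 11 between cell types in fed and FD mice, and from 11 to 0 for the difference between cell types in the change with deprivation. It moved the median over all genes, on the log2 scale, to -1.11 for POMC FD against fed, 1.10 between cell types in FD mice and 1.04 for the difference of changes. Under it, Cntnap1 (0.21) and Pcdh1 (0.59) between cell types in FD mice and Pcdh7 (0.11) in the difference of changes moved from below to above 0, but stayed below these moved medians. The stricter call criteria left 6 members in the AGRP comparison. DESeq2 gave 1 called member in POMC neurons, and limma-voom gave 7 for the difference of changes. Leaving out each library in turn gave 10 to 13 members in AGRP neurons, 0 to 1 in POMC neurons, 17 to 20 and 23 to 26 between cell types in fed and FD mice, and 6 to 11 for the difference of changes. The cause of these moves was not tested. Under spike-in scaling, a shift by spike-in set cannot be told apart from one by RNA per cell.

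Libraries of the same replicate number did not deviate together (correlations of -0.18 to 0.12), and the main model did not pair them by number. These values cannot exclude a shared litter or sorting day. With the replicate block the counts were 9, 0, 17, 24 and 7 in the same order of comparisons, and 8 of the 13 AGRP calls were kept. Over all settings, 592 values of single members kept their direction and side of the threshold, and 108 kept their direction but were no longer called; the 3 that turned are named above. Members at a few reads per library, such as Cdh1, Pcdh18 and Cdh9 in AGRP neurons, are the least precise.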
